A study of Homo sapiens with 12 samples.

Results

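Antisense RNAs are transcripts named for a gene on the other strand of the same locus, and 470 of them were followed here under 3 drug treatments and a vehicle in Hs695T, a human melanoma cell line. The members were all genes with a named row in the deposited table whose symbol ends in -AS1, -AS2 or -AS3, and they make up 470 of 14599 genes. Of these, 426 end in -AS1, 32 in -AS2 and 12 in -AS3. A gene with more than 1 row was represented by its brightest row, which applied to 3 members. The gene named before the hyphen, called the sense gene, had a row of its own for 305 members (294 distinct sense genes) and had no named row for 165.

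An antisense RNA is transcribed from the strand opposite its sense gene. Some start close to the start of the sense gene and run away from it, so that both genes share 1 stretch of promoter DNA, while others start inside or beyond the sense gene and run back across it. Individual examples recruit chromatin modifiers, host small nucleolar RNAs or pair with the sense transcript, and for most members no function has been established. Many are transcribed at low levels.

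The treatments lasted 24 h, and each was measured on 3 single-colour arrays. Combination cells received 100 nM dabrafenib (a BRAF inhibitor), 10 nM trametinib (a MEK inhibitor) and 1 µM entinostat, which inhibits histone deacetylases of class I. MAPKi cells received dabrafenib and trametinib at those doses, HDACi cells received entinostat alone at that dose, and vehicle cells received DMSO. All cells were 1 line grown in RPMI medium with fetal bovine serum, so nothing here extends to other lines. Sample titles call the arrays biological replicates whereas the study design calls them technical triplicates, and p-values therefore measure only the spread between these arrays. In bulk RNA of this kind, fewer cells with a transcript and less of it per cell cannot be told apart.

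Of the melanocytic markers, S100B stood at percentile 99.3 and SOX10 at percentile 96.0 of all genes by mean level, while PMEL stood at 51.8, EDNRB at 46.9, MITF at 44.8, MLANA at 14, TYR at 9.85 and TYRP1 at 7.51. Of markers of other cell types with a row, the fibroblast genes LUM and DCN stood at percentile 3.25 and 3.23, the epithelial genes KRT8, EPCAM, KRT14 and KRT5 at 54.7, 43.3, 38.5 and 14.2, and the immune marker CD68 at 88.4. The listed markers were thus not uniformly bright for melanocytic cells nor uniformly dim for others, and their part in the results was not tested.

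Most genes had lower intensity in treated cells, and every change below has to be read beside that. Over all genes the median log2 change came to -0.72 for the combination, -0.48 for MAPKi and -0.20 for HDACi, each against vehicle. After quantile normalization, which gives all arrays 1 distribution, these medians were -0.03, 0.01 and -0.04. Whether the deposited difference in overall level is one of RNA per cell or of array scaling was not tested, and each change is given on the deposited scale, with the value after quantile normalization where it alters the reading. A gene passed at a Benjamini-Hochberg adjusted p under 0.05 over all 14599 genes. Errors after ± are limma's standard errors for changes and SDs for group means.

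Antisense genes were dim. Their mean log2 intensity over the 12 arrays had a median of 4.90 (2.12 to 8.64), against 6.05 for all genes and 6.39 for their sense genes. With all genes cut into 3 equal parts by level, 276 members lay in the dim part, 162 in the middle and 32 in the bright part. The median intensity of the 470 genes per array averaged 25.6 ± 2.77 with the combination, 28.4 ± 0.862 with MAPKi, 31.6 ± 1.58 with HDACi and 34.8 ± 1.67 with vehicle (SD, n = 3 each). The brightest were ZNF667-AS1, PITPNA-AS1, LPP-AS2 and URB1-AS1, and of these ZNF667-AS1 had 244, 269 and 275 intensity units with the combination, 444, 436 and 357 with MAPKi, 388, 426 and 445 with HDACi and 566, 555 and 566 with vehicle. LPP-AS2 had 263, 279 and 301 with the combination, 403, 417 and 394 with MAPKi, 263, 300.0 and 295 with HDACi and 343, 317 and 351 with vehicle. The MAPKi arrays were thus the highest for LPP-AS2 (0.26 ± 0.10 against vehicle, adjusted p = 0.027), without overlap with vehicle, while for ZNF667-AS1 all vehicle arrays lay above all treated ones.

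**Figure D1:**
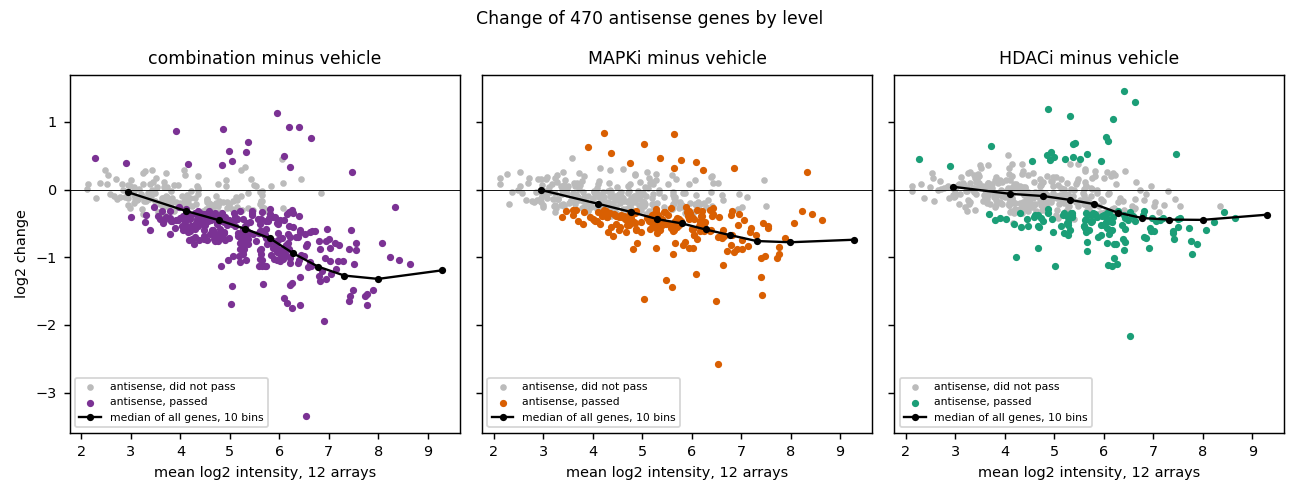
Log2 change of the 470 antisense genes against vehicle (y axis) by mean log2 intensity over 12 arrays (x axis), for the combination, MAPKi and HDACi, with coloured points for genes that passed and a black line for the median of all 14599 genes in 10 equal bins of level. The line lies near 0 for the dimmest genes and lower for bright ones in all 3 panels, most antisense genes lie to the left and centre, and PRR7-AS1 is the lowest point in each panel.

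In number, falls far exceeded rises on the deposited scale. With the combination 288 members fell and 17 rose, with MAPKi 195 fell and 13 rose, and with HDACi 118 fell and 23 rose. That is 64.9%, 44.3% and 30% of the members in either direction, where the background over all genes was 78.6%, 69.1% and 47.5%. By direction, the background over all genes was 74.3% lower and 4.38% higher with the combination, 66.2% lower and 2.97% higher with MAPKi, and 37.2% lower and 10.4% higher with HDACi. Among the members the shares that fell were 61.3%, 41.5% and 25.1% in the same order. The 3 treated and 3 vehicle arrays did not overlap for 295 members with the combination (62.8%, beside 76.8% of all genes), for 238 with MAPKi (50.6%, beside 71.1%) and for 183 with HDACi (38.9%, beside 55.4%). The median change of the members was -0.43 with the combination, -0.26 with MAPKi and -0.14 with HDACi.

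Falls were called less often among dim genes of any kind, and most members are dim. In the dim part, 68 of 276 members (24.6%) fell with MAPKi, where the background of dim genes was 31.2%. In the middle part it was 102 of 162 (63.0%), beside 78.3% of all such genes. With the combination the shares in the dim part were nearly level, at 46.4% (128 members) beside 45.6%. With HDACi the dim members fell in 9.78% of cases (27 members) and all dim genes in 7.38%. These shares are descriptions, and whether the members differ from other genes of equal level was not tested.

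After quantile normalization more members were higher than lower with the combination and MAPKi, whereas falls still exceeded rises with HDACi. With the combination 86 members were higher and 49 lower (background 22.1% and 24.2%), with MAPKi 80 higher and 19 lower (15.1% and 13.9%), and with HDACi 38 higher and 58 lower (18.5% and 21.1%). Members that passed in 1 direction on both scales numbered 16 higher and 49 lower with the combination, 13 higher and 18 lower with MAPKi, and 21 higher and 58 lower with HDACi. By contrast 33 members were lower on the deposited scale and higher after quantile normalization with the combination, 11 with MAPKi and 0 with HDACi. The shares of all genes that passed on both scales or switched between them are not given, so these counts are descriptions. Over the 3 comparisons with vehicle, 335 members passed in at least 1, 135 in none and 86 in all 3. Of the 86, 80 were lower in all 3 and 2 were higher in all 3 (CCDC18-AS1 and EPCIP-AS1), and the others differed in direction between treatments. The matching shares of all genes over the 3 comparisons are not given, and the comparisons share the vehicle arrays. These counts thus describe the members only and are no trait of them.

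CCDC18-AS1 and EPCIP-AS1 rose with every treatment on both scales. EPCIP-AS1 had 45.1, 54.4 and 47.9 with the combination, 48.3, 38.9 and 38.4 with MAPKi, 45.9, 56.3 and 42 with HDACi and 28.4, 34.2 and 27.9 with vehicle. CCDC18-AS1 had 82.8, 67.9 and 69.2 with the combination, 70.3, 65 and 69.3 with MAPKi, 85.2, 88.6 and 79.9 with HDACi and 57.7, 47.1 and 50.4 with vehicle. In both, all 9 treated arrays lay above all 3 vehicle arrays. The changes of CCDC18-AS1 were 0.50 ± 0.11, 0.40 ± 0.11 and 0.71 ± 0.11 for combination, MAPKi and HDACi. CCDC18, a coiled-coil protein gene on the opposite strand without overlap, had 105, 96.3 and 89.9 with the combination and 213, 177 and 172 with vehicle, a change of -0.94 ± 0.11 on the deposited scale and 0.23, without passing, after quantile normalization.

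The 4 members that were lower in all 3 comparisons on both scales were PRR7-AS1, TMPO-AS1, FOXD2-AS1 and ATP2A1-AS1. PRR7-AS1, which overlaps PRR7, the gene of a proline-rich membrane adaptor protein, had the largest change of any member. Its intensity was 36.3, 45.1 and 30.9 with the combination, 71.8, 60.4 and 57.4 with MAPKi, 84, 85.9 and 82.9 with HDACi and 423, 305 and 416 with vehicle. Every treated array lay far below every vehicle array, and the combination arrays lay below those of either treatment alone. The change was -3.35 ± 0.15 with the combination (adjusted p = 2.4e-11), -2.58 ± 0.15 with MAPKi (adjusted p = 9.1e-10) and -2.16 ± 0.15 with HDACi (adjusted p = 2.0e-08), or 10.2-, 5.99- and 4.47-fold lower than vehicle. PRR7 itself fell by less, with 79.8, 109.6 and 79 with the combination, 137, 114 and 125 with MAPKi, 164, 166 and 148 with HDACi and 288, 325 and 309 with vehicle. Its changes were -1.80 ± 0.13, -1.30 ± 0.13 and -0.95 ± 0.13 in the same order. After quantile normalization PRR7-AS1 still stood at -2.41, -1.79 and -1.72, against -0.57, -0.50 and -0.51 for PRR7.

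TMPO-AS1 starts within 1 kb of TMPO, which encodes lamina-associated polypeptide 2 of the nuclear envelope. It had 42, 49.2 and 42.6 with the combination, 63, 54.8 and 52.3 with MAPKi, 69.7, 63 and 54.9 with HDACi and 137, 121 and 148 with vehicle. The treated arrays again did not overlap vehicle, while MAPKi and HDACi arrays overlapped each other. Its changes were -1.60 ± 0.12, -1.25 ± 0.12 and -1.12 ± 0.12. TMPO fell further on every treatment, at -2.46 ± 0.11 with the combination, -1.84 ± 0.11 with MAPKi and -1.38 ± 0.11 with HDACi. FOXD2-AS1, beside the forkhead transcription factor gene FOXD2, changed by -1.56 ± 0.12 with MAPKi, and FOXD2 by -0.86 ± 0.14, which did not pass after quantile normalization (-0.35). ATP2A1-AS1, named for a calcium pump of the sarcoplasmic reticulum, had -0.95 ± 0.13 with MAPKi and -0.45 ± 0.13 with HDACi.

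The promoters of PRR7-AS1 and TMPO-AS1 are shown because these RNAs fell with every treatment, 1 overlapping its sense gene from a start farther away and 1 from a start within 1 kb of that of the sense gene. Both are RefSeq sequences of GRCh38.p14, from 250 bases before to 50 after the start, printed 5′ to 3′ on the strand of the antisense gene. PRR7-AS1 lies at chr5:177447895-177448194 and TMPO-AS1 at chr12:98516177-98516476, each on the minus strand. Capitals mark any match on either strand to 6 patterns, which were ETS (CCGGAAGT), AP-1 (TGACTCA), CRE (TGACGTCA), E2F (TTTGGCGC or TTTCCCGC), the CCAAT box (CCAAT) and the GC box (GGGCGG).
PRR7-AS1: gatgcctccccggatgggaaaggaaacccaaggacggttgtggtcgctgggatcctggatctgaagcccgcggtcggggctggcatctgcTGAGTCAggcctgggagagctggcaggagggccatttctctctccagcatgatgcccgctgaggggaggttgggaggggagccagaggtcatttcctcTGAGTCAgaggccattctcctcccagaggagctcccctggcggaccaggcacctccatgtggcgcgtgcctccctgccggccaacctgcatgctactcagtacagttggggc
TMPO-AS1: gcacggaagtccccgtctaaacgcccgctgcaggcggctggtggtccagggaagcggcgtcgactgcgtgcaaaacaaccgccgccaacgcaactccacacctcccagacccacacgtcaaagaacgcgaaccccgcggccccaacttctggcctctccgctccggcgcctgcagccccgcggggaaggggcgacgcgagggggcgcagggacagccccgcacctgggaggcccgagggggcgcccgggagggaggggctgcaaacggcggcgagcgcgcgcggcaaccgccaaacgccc
None of these patterns contains another. PRR7-AS1 held 2 AP-1 matches, and TMPO-AS1 held none of the 6. An AP-1 match occurred in 4.92% of 27305 promoters of the table, in 8.06% of the 360 members with a promoter and in 4.52% of the 155 that fell with MAPKi. ETS matches occurred in 4.44%, 3.89% and 4.52% in the same order. Over all promoters a CRE match occurred in 1.98% and an E2F match in 2.31%. A match is a description of the letters and not a site of binding.

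With MAPKi, which blocks BRAF and MEK, the largest falls after PRR7-AS1 were in DLGAP1-AS1, GNG12-AS1, FOXD2-AS1 and FGF13-AS1. DLGAP1-AS1, named for a postsynaptic scaffold gene, had 56.8, 48.1 and 43.4 with MAPKi and 149.8, 157 and 154 with vehicle, a change of -1.64 ± 0.12 (adjusted p = 1.5e-08). GNG12-AS1, named for a G protein gamma subunit, had 20.9, 16.2 and 19 with MAPKi and 62.4, 53.2 and 55.6 with vehicle, a change of -1.61 ± 0.13 (adjusted p = 4.9e-08). With HDACi it had 59.6, 55.9 and 45.2, which overlaps vehicle. FGF13-AS1 had 37.7, 20.8 and 36.6 with MAPKi and 82.9, 86.9 and 79.3 with vehicle, a change of -1.44 ± 0.19, and its MAPKi arrays were widely spread. FGF13, an intracellular member of the fibroblast growth factor family, did not pass on the deposited scale (0.17 ± 0.11, adjusted p = 0.18) and was higher after quantile normalization (0.99). Each of the 4 antisense RNAs stayed lower after quantile normalization, between -1.22 for GNG12-AS1 and -0.76 for FOXD2-AS1.

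A list drawn up for the cell cycle, DNA replication, repair and p53 had 12 measured antisense RNAs. Of these, 11 fell with MAPKi, 0 rose and 1 did not pass, with a median of -0.57 beside -0.48 for all genes. The background over all genes was 66.2% lower and 2.97% higher. The list is a loose one, and PARD6G-AS1, PSMG3-AS1 and CKMT2-AS1, among others in it, are named for genes outside these processes. The counts thus describe the list and not the processes. PCNA-AS1 lies across PCNA, the sliding clamp of DNA replication, and had 155, 130.3 and 105 with MAPKi and 315, 321 and 304 with vehicle. The change was -1.29 ± 0.15, close to that of PCNA at -1.36 ± 0.10. MCM3AP-AS1 changed by -0.87 ± 0.14 and RAD21-AS1, named for a cohesin subunit, by -0.63 ± 0.15. CDKN2B-AS1, also known as ANRIL, runs through the locus of the p15 and p16 cell cycle inhibitors and changed by -0.57 ± 0.13. After quantile normalization TMPO-AS1, PCNA-AS1 and RAD21-AS1 were the 3 of the 12 that were lower and 2 were higher, and CDKN2B-AS1 stood at -0.05. CDKN2A-AS1 did not pass, at -0.19 ± 0.10 (adjusted p = 0.11).

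The next counts with MAPKi also stand beside a background over all genes of 66.2% lower and 2.97% higher. Of 23 antisense RNAs on a list drawn up for MAPK, RAS and receptor signalling, 9 fell with MAPKi and 0 rose (median -0.28), with 2 lower and 2 higher after quantile normalization. FGF13-AS1 led these, followed on the deposited scale by ARHGAP5-AS1 at -0.85 ± 0.13 and SMAD5-AS1 at -0.62 ± 0.14. After quantile normalization these 2 did not pass, at -0.03 and -0.24. EGFR-AS1, named for the epidermal growth factor receptor, was dim, with 12.6, 9.47 and 12.3 with MAPKi and 12.1, 11.6 and 12.3 with vehicle, and did not pass (adjusted p = 0.70). A loose list drawn up for transcription factors of epithelial-mesenchymal transition and the neural crest had 15 antisense RNAs. PAX8-AS1 and TBX5-AS1, among others in it, are named for factors outside that heading. Of the 15, 4 fell and 0 rose (median -0.09), with 1 lower and 3 higher after quantile normalization (median 0.21). ZEB1-AS1, which starts beside the gene of the repressor ZEB1, changed by -0.83 ± 0.11, and its MAPKi arrays had 46.3, 49.5 and 43.4 against 83, 76.5 and 87.3 with vehicle. ZEB2-AS1 did not pass (0.13 ± 0.14, adjusted p = 0.45).

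A loose list drawn up for neuronal and ion channel genes had 24 antisense RNAs, and ATP2A1-AS1, among others in it, is named for a gene outside that heading. Of the 24, 8 fell with MAPKi and 0 rose (median -0.22), led by DLGAP1-AS1 and GNG12-AS1, with 3 lower and 0 higher after quantile normalization. All 7 members known as abundant or as hosts of small nucleolar RNAs fell (median -0.67), and FGD5-AS1 among them changed by -0.95 ± 0.10. None of the 7 was lower after quantile normalization, and 1 was higher. A loose list drawn up for metabolic enzymes and transporters had 27 antisense RNAs. HIF1A-AS2, HMGN3-AS1 and PXN-AS1, among others in it, are named for genes of neither kind. Of the 27, 13 fell and 1 rose (median -0.31), with 2 lower and 3 higher after quantile normalization. Falls numbered 2 of 8 for immune genes, 2 of 5 for chromatin genes and 1 of 3 for the HOX clusters, with 0 rises in each. After quantile normalization none of these 3 groups had a lower member, and 2 immune, 2 chromatin and 1 HOX member were higher. Over all genes 66.2% were lower and 2.97% higher with MAPKi on the deposited scale, so the counts of falls in these groups are no more than a description.

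The 13 rises with MAPKi all passed on both scales, and the largest were SPART-AS1, FAM13A-AS1, INHBA-AS1, PHACTR3-AS1 and WEE2-AS1. SPART-AS1, within the gene of the lipid droplet protein spartin, had 38.7, 31.9 and 42.6 with MAPKi and 20.0, 20.6 and 22.6 with vehicle, a change of 0.83 ± 0.18 (adjusted p = 6.1e-04). With HDACi it had 10.3, 10.8 and 10.5 and fell (-1.0 ± 0.18). FAM13A-AS1 had 107, 68.7 and 85.8 with MAPKi and 43.9, 50.5 and 52.1 with vehicle, a change of 0.82 ± 0.14 (adjusted p = 1.2e-04). INHBA-AS1, in the locus of the activin A subunit, had 35.5, 53.3 and 39.2 with MAPKi and 26.9, 27.7 and 24.7 with vehicle, a change of 0.67 ± 0.15. In these 3 the MAPKi arrays lay above all vehicle arrays. PHACTR3-AS1 changed by 0.63 ± 0.14 and WEE2-AS1 by 0.54 ± 0.13. Leaving out MAPKi array 1 reduced the number of rises to 8.

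The largest rises of any antisense RNA against vehicle on the deposited scale came with HDACi. ATP2B1-AS1, which starts beside the gene of a plasma membrane calcium pump, had 107, 108 and 104 with the combination, 61.2, 52.6 and 51.4 with MAPKi, 174, 159 and 132 with HDACi and 57.8, 67.1 and 45.6 with vehicle. Both groups with entinostat lay above all arrays without it, and HDACi alone was highest. Its change with HDACi was 1.46 ± 0.14 (adjusted p = 4.7e-07), or 2.75-fold. FEZF1-AS1, named for a zinc finger transcription factor of the developing forebrain, had 122, 119 and 123 with the combination, 61.8, 72.7 and 59 with MAPKi, 181, 165 and 179 with HDACi and 88.3, 67.9 and 61.4 with vehicle. The change with HDACi was 1.29 ± 0.13 (adjusted p = 6.9e-07). FEZF1 itself rose too, by 0.93 ± 0.11, with 109, 101 and 109 with HDACi and 55.9, 57.7 and 53.4 with vehicle.

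ARHGEF26-AS1 and its sense gene, which encodes a guanine nucleotide exchange factor, also rose together. ARHGEF26-AS1 had 39.6, 51.1 and 44 with HDACi and 22.9, 21.3 and 15.2 with vehicle, a change of 1.2 ± 0.14 (adjusted p = 3.3e-06). ARHGEF26 had 158, 168 and 129 with HDACi and 101, 94.4 and 65 with vehicle, a change of 0.82 ± 0.17. B3GALT5-AS1, beside a galactosyltransferase gene, had 61.3, 71.6 and 79.9 with HDACi and 43.9, 29.5 and 28.7 with vehicle, a change of 1.08 ± 0.15. KCNJ2-AS1, beside the gene of an inward rectifier potassium channel, had 99.2, 128 and 117 with HDACi and 70.8, 49.2 and 49.2 with vehicle, a change of 1.04 ± 0.14. HDACi and vehicle arrays did not overlap in any of these 5 antisense RNAs, and quantile normalization left their changes between 1.10 and 1.56. ATP2B1, KCNJ2 and B3GALT5 had no named row.

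**Figure D2:**
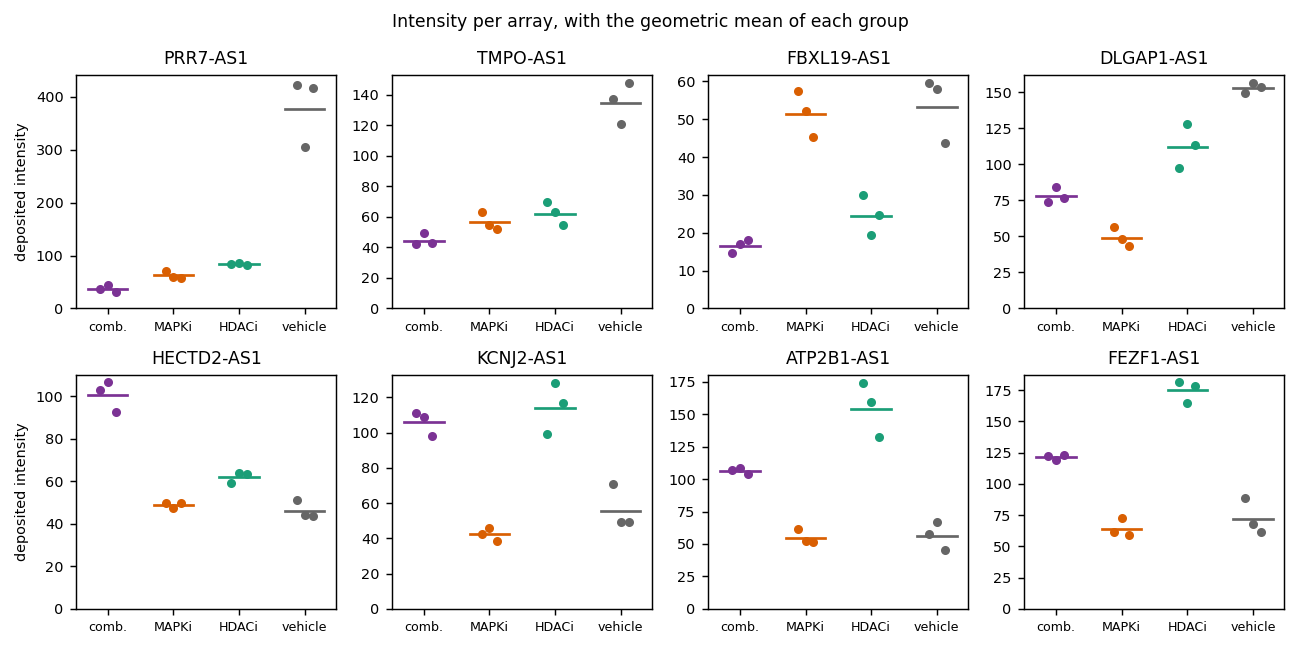
Deposited intensity (y axis, from 0) of 8 antisense RNAs on each of the 12 arrays, by group, with a line at the geometric mean of each group. PRR7-AS1 and TMPO-AS1 are low in all treated groups, FBXL19-AS1 is low in both groups with entinostat, DLGAP1-AS1 is lowest with MAPKi, HECTD2-AS1 is highest with the combination, and KCNJ2-AS1, ATP2B1-AS1 and FEZF1-AS1 are high in both groups with entinostat.

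Of the 5 largest rises with HDACi, ATP2B1-AS1, ARHGEF26-AS1, B3GALT5-AS1 and KCNJ2-AS1 start within 1 kb of the sense gene on the opposite strand. The promoters of ATP2B1-AS1 (chr12:89708705-89709004, plus strand), KCNJ2-AS1 (chr17:70169353-70169652, minus strand) and ARHGEF26-AS1 (chr3:154121161-154121460, minus strand) are printed as examples of such starts, with the same source, build and marking as above. The start of the sense gene is not marked, so the sequences do not show whether both genes share these bases.
ATP2B1-AS1: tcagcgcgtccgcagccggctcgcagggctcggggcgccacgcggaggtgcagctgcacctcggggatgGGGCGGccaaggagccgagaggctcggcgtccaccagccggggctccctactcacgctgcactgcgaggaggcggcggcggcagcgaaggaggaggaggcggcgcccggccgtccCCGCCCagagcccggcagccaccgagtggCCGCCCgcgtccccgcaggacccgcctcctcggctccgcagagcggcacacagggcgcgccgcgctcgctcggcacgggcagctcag
KCNJ2-AS1: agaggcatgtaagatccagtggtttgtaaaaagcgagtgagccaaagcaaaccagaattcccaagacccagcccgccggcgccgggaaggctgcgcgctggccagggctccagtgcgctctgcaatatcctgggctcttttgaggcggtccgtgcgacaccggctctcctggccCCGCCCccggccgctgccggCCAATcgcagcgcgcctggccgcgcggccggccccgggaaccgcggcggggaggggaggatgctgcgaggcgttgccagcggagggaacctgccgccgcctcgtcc
ARHGEF26-AS1: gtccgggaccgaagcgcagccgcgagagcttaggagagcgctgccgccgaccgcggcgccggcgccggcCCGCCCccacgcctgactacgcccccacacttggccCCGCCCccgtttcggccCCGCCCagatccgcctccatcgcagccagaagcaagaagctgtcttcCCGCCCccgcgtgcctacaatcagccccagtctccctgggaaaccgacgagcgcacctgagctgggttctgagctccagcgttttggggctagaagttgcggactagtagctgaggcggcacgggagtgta
ATP2B1-AS1 held 3 GC boxes, ARHGEF26-AS1 held 4, and KCNJ2-AS1 held 1 with a CCAAT box. A GC box occurred in 11 of 18 promoters of members that rose with HDACi (61.1%), in 41.7% of the 360 members with a promoter and in 44.6% of all promoters. In the same 18 promoters ETS, AP-1 and CRE matches occurred in 1 each, an E2F match in 0 and a CCAAT box in 6 (33.3%). With 6 patterns looked for in 18 promoters these shares are descriptions, and enrichment was not tested.

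The falls with HDACi were led, after PRR7-AS1, by LBX2-AS1, FBXL19-AS1, TMPO-AS1 and RAB11B-AS1. LBX2-AS1, beside a homeobox gene, had 62.1, 58.5 and 56.6 with HDACi and 107, 131 and 153 with vehicle, a change of -1.13 ± 0.12 (adjusted p = 1.7e-06), and LBX2 changed by -0.74 ± 0.13. FBXL19-AS1 starts beside the gene of an F-box protein with a CpG-binding domain. It had 30.0, 19.4 and 24.7 with HDACi and 59.6, 58 and 43.7 with vehicle, a change of -1.13 ± 0.16, and FBXL19 changed by -1.0 ± 0.16. RAB11B-AS1, named for a GTPase of recycling endosomes, had 65.6, 59.4 and 66.8 with HDACi and 139.6, 138 and 134 with vehicle, a change of -1.10 ± 0.10. LBX2-AS1, FBXL19-AS1 and RAB11B-AS1 also fell after quantile normalization, between -0.98 and -0.79. Without vehicle array 1 the number of members lower with HDACi was 74 in place of 118.

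By list, HDACi lowered 4 of 12 members of the cell cycle list (median -0.28) and 3 of 23 of the signalling list (median -0.13). Of the metabolism list it lowered 12 of 27 (median -0.28). It raised 0, 2 and 2 members of these lists. The median over all genes was -0.20, and 37.2% of them were lower and 10.4% higher. After quantile normalization 2 cell cycle members were lower and 1 higher, 1 signalling member was lower and 3 higher, and 5 metabolism members were lower and 2 higher. The 2 signalling members that rose were ARHGEF26-AS1 and PTPRG-AS1, which is named for a receptor tyrosine phosphatase and changed by 0.48 ± 0.13. Among the 15 transcription factor antisense RNAs 1 rose and 3 fell, against 3 higher and 2 lower after quantile normalization. The rise on the deposited scale was MSC-AS1, at 0.56 ± 0.12, together with MSC, the gene of the bHLH repressor musculin, at 0.45 ± 0.13. DLX6-AS1, transcribed from a homeobox locus of forebrain interneurons, changed by -0.55 ± 0.15. CDKN2B-AS1 fell by a like amount with HDACi (-0.62 ± 0.13) and MAPKi, and here it stayed lower after quantile normalization (-0.45). Falls numbered 3 of 24 for neuronal genes, 2 of 8 for immune genes (TRAF3IP2-AS1 at -0.70 ± 0.11, CD27-AS1 at -0.60 ± 0.13), 3 of 5 for chromatin genes, 1 of 3 for HOX and 5 of 7 for abundant or host RNAs, with 0 rises in each. After quantile normalization 1 neuronal, 2 immune, 1 chromatin, 1 HOX and 3 abundant members were lower, and 1 abundant member was higher.

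The combination of all 3 drugs gave the largest falls. After PRR7-AS1 these were in PRRT3-AS1, RAB11B-AS1, FGD5-AS1 and PRR34-AS1. PRRT3-AS1, across a gene for a proline-rich transmembrane protein, had 53.1, 59.9 and 64.5 with the combination, 129.7, 113 and 129 with MAPKi, 118, 138 and 119 with HDACi and 238, 220.1 and 225 with vehicle. The single treatments lay between the combination and vehicle without touching either. Its change with the combination was -1.95 ± 0.11 (adjusted p = 1.9e-10). RAB11B-AS1 had 37.9, 43.8 and 40.8 with the combination and changed by -1.75 ± 0.10. FGD5-AS1, named for an exchange factor of the GTPase CDC42, had 121, 126 and 115 with the combination and 437, 370.4 and 375 with vehicle, a change of -1.71 ± 0.10. PRR34-AS1 changed by -1.70 ± 0.16. After quantile normalization these 4 changes were -0.88, -0.92, -0.41 and -0.81.

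The largest rise with the combination was in HECTD2-AS1, which lies across HECTD2, the gene of a HECT-domain ubiquitin ligase. HECTD2-AS1 had 103, 107 and 92.7 with the combination, 49.7, 47.6 and 49.8 with MAPKi, 59.3, 64.1 and 63.4 with HDACi and 51.1, 44.2 and 43.7 with vehicle. The combination stood above all other arrays, HDACi was next, and MAPKi overlapped vehicle. The change was 1.12 ± 0.10 with the combination (adjusted p = 3.5e-08) and 0.43 ± 0.10 with HDACi. HECTD2 went the other way, with 84, 79.7 and 84.3 with the combination and 216, 165 and 167 with vehicle, a change of -1.13 ± 0.13. After quantile normalization HECTD2-AS1 stood at 2.00 and HECTD2 at 0.00. The rise of the antisense RNA thus holds on both scales and the fall of the sense gene on the deposited scale alone.

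The promoter of HECTD2-AS1 (chr10:91611411-91611710, minus strand, GRCh38.p14 from RefSeq) is printed because this RNA had the largest rise with the combination, and it held 1 CCAAT box, in capitals on the reverse strand.
HECTD2-AS1: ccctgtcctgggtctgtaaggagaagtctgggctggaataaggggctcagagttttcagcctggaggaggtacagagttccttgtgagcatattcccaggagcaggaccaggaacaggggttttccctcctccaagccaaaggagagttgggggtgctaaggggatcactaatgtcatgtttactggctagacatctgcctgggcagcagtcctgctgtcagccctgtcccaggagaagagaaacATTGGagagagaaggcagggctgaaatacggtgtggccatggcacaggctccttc
A CCAAT box occurred in 35.7% of all promoters and in 34.4% of the 360 members with a promoter.

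KCNJ2-AS1, ATP2B1-AS1 and ARHGEF26-AS1 also rose with the combination, by 0.93 ± 0.14, 0.93 ± 0.14 and 0.90 ± 0.14. KCNJ2-AS1 had 111, 109 and 98.2 with the combination, 42.7, 45.9 and 38.5 with MAPKi, 99.2, 128 and 117 with HDACi and 70.8, 49.2 and 49.2 with vehicle. ARHGEF26 did not pass with the combination on the deposited scale (0.02 ± 0.17, adjusted p = 0.93), with overlapping arrays, and was higher after quantile normalization (0.99). FRMD6-AS2, in the locus of a FERM-domain protein of the Hippo pathway, had 26.9, 28.8 and 18.1 with the combination and 13.1, 14 and 12.6 with vehicle, a change of 0.87 ± 0.16 (adjusted p = 1.4e-04). The 3 combination arrays were unequal and the values dim.

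By list, the combination lowered 11 of 12 members of the cell cycle list (median -0.82) and 16 of 23 of the signalling list (median -0.41). It lowered 9 of 15 of the transcription factor list (median -0.35) and 8 of 24 of the neuronal list (median -0.21). Of the metabolism list it lowered 18 of 27 (median -0.42). It raised 0, 1, 0, 0 and 1 members of these lists. The median over all genes was -0.72, and 74.3% of them were lower and 4.38% higher. PCNA-AS1 had 83.9, 106 and 112 with the combination and 315, 321 and 304 with vehicle, a change of -1.65 ± 0.15, and PCNA changed by -1.29 ± 0.10. DDX11-AS1, named for a DNA helicase of sister chromatid cohesion, changed by -1.08 ± 0.13, and CDKN2B-AS1 by -1.04 ± 0.13. ARHGAP5-AS1 changed by -1.54 ± 0.13 and RASSF8-AS1 by -1.11 ± 0.12. After quantile normalization 2 cell cycle members were lower and 1 higher, 1 signalling member was lower and 5 higher, 1 transcription factor member was lower and 5 higher, 2 neuronal members were lower and 1 higher, and 3 metabolism members were lower and 6 higher. On that scale PCNA-AS1 at -0.40, DDX11-AS1 at -0.23, ARHGAP5-AS1 at -0.23 and RASSF8-AS1 at -0.09 did not pass. On the deposited scale the largest falls of the metabolism group were DHRS4-AS1, named for a short-chain dehydrogenase, at -1.48 ± 0.10 and STARD7-AS1, named for a lipid transfer protein, at -1.41 ± 0.11. After quantile normalization STARD7-AS1 was still lower (-0.57) and DHRS4-AS1 did not pass (-0.18). Falls numbered 7 of 7 for abundant or host RNAs (median -1.28), 4 of 8 for immune genes, 4 of 5 for chromatin genes and 2 of 3 for HOX, with 0 rises. After quantile normalization 2 abundant, 1 immune, 0 chromatin and 0 HOX members were lower, and 0, 2, 3 and 0 were higher. Among the abundant RNAs ZNF667-AS1 changed by -1.10 ± 0.11 on the deposited scale and by 0.20, without passing, after quantile normalization.

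Adding entinostat to MAPKi (combination against MAPKi) lowered 139 members and raised 22, where the background was 40.6% lower and 8.68% higher. After quantile normalization 91 were lower (background 23.5%) and 60 higher (19.9%), and 90 were lower and 22 higher on both scales. The share of all genes that passed on both scales is not given. Arrays of the 2 groups did not overlap for 36.6% of the members, beside 54.0% of all genes. FBXL19-AS1 had 14.7, 17.1 and 18.1 with the combination and 57.4, 52.3 and 45.4 with MAPKi, a change of -1.63 ± 0.16 (adjusted p = 6.2e-07), while FBXL19 changed by -0.52 ± 0.16, a fall that did not pass after quantile normalization (-0.25). SPART-AS1 had 16.4, 18.6 and 10.0 with the combination and 38.7, 31.9 and 42.6 with MAPKi, a change of -1.37 ± 0.18, and its combination arrays lay below all vehicle arrays too. FAM13A-AS1 likewise had 42.9, 40.4 and 33.8 with the combination and 107, 68.7 and 85.8 with MAPKi, a change of -1.14 ± 0.14. PRR34-AS1 changed by -1.31 ± 0.16 and RAB11B-AS1 by -1.24 ± 0.10. The largest rises were KCNJ2-AS1 at 1.32 ± 0.14, B3GALT5-AS1 at 1.16 ± 0.15, FRMD6-AS2 at 1.16 ± 0.16, C2CD4D-AS1 at 1.05 ± 0.16 and HECTD2-AS1 at 1.04 ± 0.10. C2CD4D-AS1 had 44.2, 44.6 and 46.4 with the combination and 28, 19.1 and 19.4 with MAPKi. Its sense gene C2CD4D gave -0.01 ± 0.12, with overlapping arrays.

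Adding MAPKi to entinostat (combination against HDACi) lowered 221 members and raised 3, where the background was 72.6% lower, 0.644% higher and 73.3% in either direction. After quantile normalization 8 were lower (background 11.6%) and 68 higher (11.4%). GNG12-AS1 had 19.1, 24.2 and 20.6 with the combination and 59.6, 55.9 and 45.2 with HDACi, a change of -1.33 ± 0.13 (adjusted p = 4.6e-07) that kept its sign and its call after quantile normalization (-0.95). PRR7-AS1 changed by -1.19 ± 0.15, PRRT3-AS1 by -1.08 ± 0.11, GNAS-AS1 by -1.04 ± 0.14 and PCNA-AS1 by -1.04 ± 0.15. Of these 4, GNAS-AS1 and PCNA-AS1 did not pass after quantile normalization (-0.20 and -0.21). HECTD2-AS1 rose by 0.70 ± 0.10 and FRMD6-AS2 by 0.72 ± 0.16, and in both the combination arrays lay above all HDACi arrays. These 2 comparisons and the 3 with vehicle share arrays, so their values stand side by side and are not independent of each other.

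Where both genes of a pair passed, they mostly moved the same way. With the combination both genes fell in 168 of 305 pairs and both rose in 2, with MAPKi both fell in 111 and both rose in 1, and with HDACi both fell in 53 and both rose in 7. After quantile normalization both were lower in 18 pairs and both higher in 24 with the combination, in 9 and 21 with MAPKi, and in 19 and 14 with HDACi. The deposited counts have to be read beside the shares of all genes that fell on the deposited scale, given above. The sense gene alone passed in 76, 112 and 108 pairs and the antisense gene alone in 13, 14 and 24, in the same order of treatments. The antisense genes were the dimmer of the 2 sets, and whether this difference in calls goes with level was not tested. Across the 305 pairs, Pearson's r between the 2 changes was 0.37 with the combination, 0.30 with MAPKi and 0.41 with HDACi (Spearman's coefficient 0.41, 0.36 and 0.44). After quantile normalization r was 0.25, 0.28 and 0.35. Both genes of a pair were read from the same arrays and some pairs share a sense gene, so r describes these pairs only.

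The 7 pairs in which both genes rose with HDACi were those of FEZF1-AS1, ARHGEF26-AS1, MSC-AS1, HAS2-AS1, HMGN3-AS1, TRHDE-AS1 and UPK1A-AS1. FEZF1-AS1 and UPK1A-AS1 were also the 2 pairs in which both rose with the combination. For FEZF1 the combination arrays had 90.4, 96.8 and 83.3 and the vehicle arrays 55.9, 57.7 and 53.4. UPK1A, a uroplakin of the bladder lining, had 151, 169.6 and 155 with HDACi and 82.5, 77.2 and 71.7 with vehicle, a change of 1.04 ± 0.14, and UPK1A-AS1 changed by 0.51 ± 0.13. HAS2, a hyaluronan synthase, had 48.2, 61 and 37.2 with HDACi and 28.7, 29 and 28.7 with vehicle, a change of 0.73 ± 0.15, and HAS2-AS1 changed by 0.43 ± 0.16 with overlapping arrays. The HAS2 pair fell together with MAPKi, at -0.75 ± 0.15 for HAS2 and -0.55 ± 0.16 for HAS2-AS1.

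**Figure D3:**
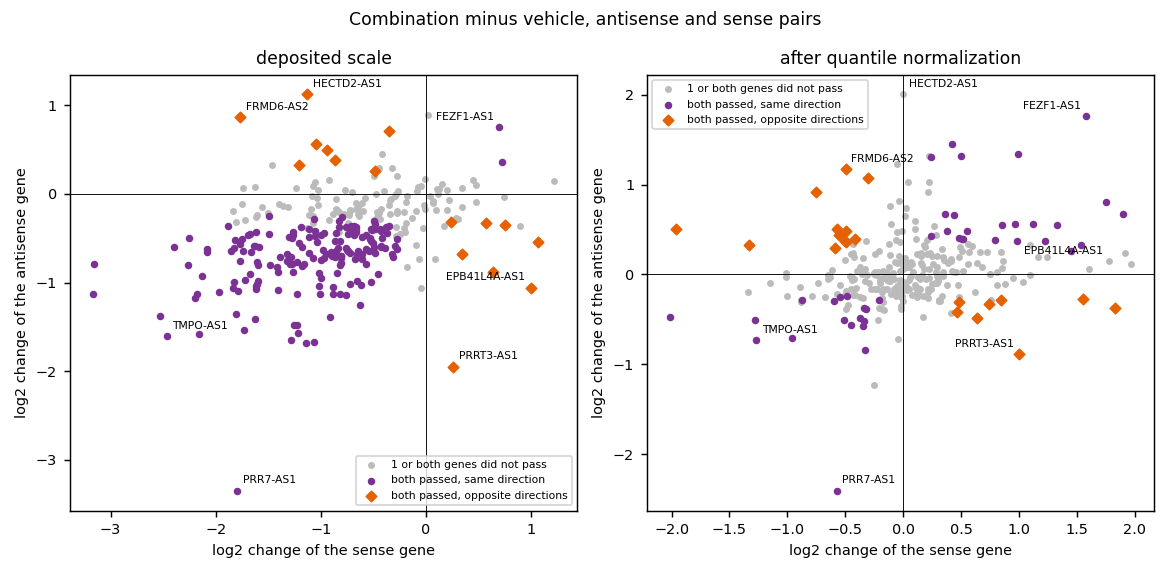
Log2 change of the antisense gene (y axis) against that of its sense gene (x axis) for combination minus vehicle in 305 pairs, on the deposited scale and after quantile normalization. Orange diamonds mark pairs in which both genes passed in opposite directions, 16 on the deposited scale (8 with the antisense gene higher and 8 with it lower) and 20 after quantile normalization (12 and 8).

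Some pairs passed in opposite directions. On the deposited scale, with the combination the antisense gene rose and the sense gene fell in 8 pairs, and the reverse held in 8. With MAPKi these counts were 7 and 3, and with HDACi 2 and 4. After quantile normalization they were 12 and 8 with the combination, 6 and 2 with MAPKi, and 3 and 4 with HDACi, to be read beside the same-direction counts above. FRMD6-AS2 rose with the combination while FRMD6 had 115, 115 and 99.4 with the combination and 423, 340.0 and 358 with vehicle, a change of -1.77 ± 0.12 (adjusted p = 1.3e-09). SCOC-AS1, across the gene of a coiled-coil protein of the Golgi, had 39.6, 43.4 and 38.2 with the combination and 28.4, 31.8 and 22.5 with vehicle, a change of 0.56 ± 0.15. SCOC had 45.1, 42.3 and 41.3 with the combination and 92.3, 92.2 and 82.5 with vehicle, a change of -1.05 ± 0.11. In both pairs the directions were opposite on both scales.

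In the reverse direction PRRT3-AS1 fell with the combination by 3.86-fold while PRRT3 had 57.2, 62.3 and 53 with the combination and 52, 43.3 and 49 with vehicle, a small rise of 0.26 ± 0.11 (adjusted p = 0.038). After quantile normalization PRRT3-AS1 stood at -0.88 and PRRT3 at 1.00. EPB41L4A-AS1, a host of a small nucleolar RNA, had 96.5, 104 and 106 with the combination and 228, 199 and 210.2 with vehicle, a change of -1.06 ± 0.11. EPB41L4A, a band 4.1-like protein gene, had 68.7, 85.5 and 73.6 with the combination and 33.6, 45.1 and 36 with vehicle, a change of 1.0 ± 0.12. The fall of EPB41L4A-AS1 was absent after quantile normalization (0.14, adjusted p = 0.27), whereas the rise of EPB41L4A was larger (1.77).

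**Figure D4:**
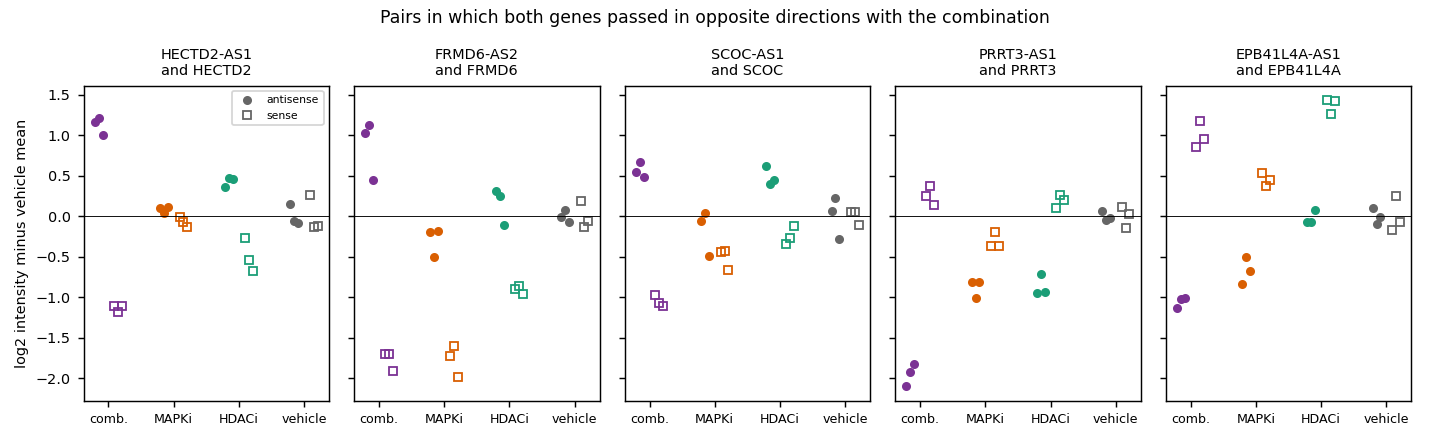
Log2 intensity minus the vehicle mean (y axis) on each of the 12 arrays for 5 antisense RNAs (filled circles) and their sense genes (open squares), by group. In the first 3 panels the circles lie above and the squares below 0 with the combination, and in PRRT3 and EPB41L4A the order is turned.

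The pairs of ENTPD1 and LEMD1 ran the same way as that of PRRT3 with the combination, on the deposited scale and after quantile normalization. With array medians subtracted, however, ENTPD1-AS1 stood at 0.12 and no longer ran opposite to ENTPD1. That subtraction shifts every gene of a comparison by the same amount. LEMD1-AS1, with a smaller fall than ENTPD1-AS1, thus no longer ran opposite to LEMD1 either. LEMD1-AS1 had 13.8, 13.5 and 12.8 with the combination and 20.2, 20.1 and 18 with vehicle, a change of -0.54 ± 0.11. LEMD1, which encodes a LEM domain protein, had 36.4, 46.5 and 42.3 with the combination and 27.4, 21.1 and 13.6 with vehicle, a change of 1.06 ± 0.19. ENTPD1, the ectonucleotidase CD39, changed by 0.34 ± 0.13 and ENTPD1-AS1 by -0.68 ± 0.10. Both sense genes were highest with HDACi, at 56.3, 57.8 and 53.4 for LEMD1 and 59.8, 63.4 and 59.8 for ENTPD1.

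With MAPKi the pairs CBR3-AS1 and CBR3, ST7-AS1 and ST7, and TMEM44-AS1 and TMEM44 passed in opposite directions on both scales. CBR3-AS1 had 81.6, 77.6 and 76.8 with MAPKi and 67.4, 65.3 and 61.6 with vehicle, a change of 0.28 ± 0.11 (adjusted p = 0.027). CBR3, a carbonyl reductase, had 77.4, 81.8 and 71.4 with MAPKi and 195, 197 and 198 with vehicle, a change of -1.35 ± 0.09 (adjusted p = 7.7e-09). The antisense rise was small and the sense fall large. ST7-AS1 changed by 0.31 ± 0.13 with overlapping arrays, and ST7 by -1.14 ± 0.11. TMEM44-AS1 changed by 0.32 ± 0.12 and TMEM44 by -0.90 ± 0.11. SPART, under SPART-AS1, changed by -0.35 ± 0.10 on the deposited scale and by 0.26 after quantile normalization, so its direction depends on the scale.

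With HDACi the pairs of ARRDC3 and JRKL passed in opposite directions on both scales. ARRDC3-AS1 had 27.6, 33.3 and 33.8 with HDACi and 63.9, 36.5 and 50.4 with vehicle, a change of -0.64 ± 0.17. ARRDC3, an arrestin-domain protein that acts in receptor trafficking, had 651, 666 and 672 with HDACi and 467, 444 and 444 with vehicle, a change of 0.55 ± 0.10 (adjusted p = 1.8e-04). Neither gene's arrays overlapped between the groups. JRKL-AS1 changed by -0.47 ± 0.13 and JRKL by 0.35 ± 0.11. STARD4-AS1 changed by -0.57 ± 0.15, and STARD4, a sterol transfer protein, had 888, 843 and 887 with HDACi and 550.2, 511 and 460.1 with vehicle, a change of 0.79 ± 0.11. The fall of STARD4-AS1 did not pass after quantile normalization (-0.21). For a single pair an exact permutation test of 3 arrays against 3 cannot go below p = 0.1, so the difference between the 2 changes of a pair was not tested.

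By position, 106 members start within 1 kb of the sense gene on the opposite strand, 197 overlap it on the opposite strand from a start farther away, and 13 lie on the opposite strand without overlap. For 148 the strand of 1 gene is not in the tables used, and for 6 the sense symbol is not. No pair with both strands known lay on the same strand. Starts within 1 kb on opposite strands are called shared starts here, whichever way the genes point. The median level was 5.26 for shared starts and 4.67 for overlapping genes. With the combination 68 of the 106 fell and 5 rose (median -0.42), and 118 of the 197 fell and 7 rose (median -0.45), where 74.3% of all genes were lower. After quantile normalization 13 were lower and 26 higher for shared starts, and 21 lower and 29 higher for overlapping genes (background 24.2% lower and 22.1% higher). With HDACi on the deposited scale it was 31 lower and 6 higher for shared starts (median -0.17), and 52 lower and 9 higher for overlapping genes (median -0.14), where the background was 37.2% lower and 10.4% higher. After quantile normalization these counts were 17 lower and 10 higher, and 23 lower and 12 higher (background 21.1% lower and 18.5% higher). Across pairs with both genes measured, r with the combination was 0.41 over 63 shared starts and 0.31 over 140 overlapping pairs, with MAPKi 0.38 and 0.31, and with HDACi 0.42 and 0.43. After quantile normalization r was 0.34 and 0.14 with the combination, 0.36 and 0.29 with MAPKi, and 0.38 and 0.36 with HDACi. Spearman's coefficient, in the same order of kinds, was 0.37 and 0.39 with the combination, 0.43 and 0.36 with MAPKi, and 0.40 and 0.50 with HDACi. After quantile normalization it was 0.30 and 0.23, 0.25 and 0.41, and 0.34 and 0.45. Which kind had the higher value thus depended on the coefficient and the treatment. The difference between the kinds of locus was not tested. Whether the probes of a member lie in sequence it shares with its sense gene, and whether the assay kept the strand, is not given in the sources used here, so signal from overlapping genes is uncertain.

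The interaction asks whether entinostat changed a gene by another amount on top of MAPKi than alone, as (combination minus MAPKi) minus (HDACi minus vehicle). It passed in 13 members, 8 positive and 5 negative, where the background was 3.16% positive and 4.84% negative. After quantile normalization 14 were positive (background 6.21%) and 5 negative (6.26%). PRR7-AS1 had the largest value, 1.40 ± 0.21 (adjusted p = 5.8e-04). Its falls with MAPKi and with HDACi alone add up to more than its fall with the combination. DLGAP1-AS1 had 1.11 ± 0.17 (adjusted p = 6.7e-04), with 73.7, 84.2 and 76.4 with the combination, 56.8, 48.1 and 43.4 with MAPKi, 97.6, 128 and 114 with HDACi and 149.8, 157 and 154 with vehicle. The combination thus lay between MAPKi and HDACi for this RNA. FRMD6-AS2 had 1.01 ± 0.23 and HECTD2-AS1 0.61 ± 0.14, both higher with the combination than with either treatment alone. TMPO-AS1 had 0.77 ± 0.17, together with TMPO at 0.76 ± 0.16. The most negative was FAM13A-AS1, at -0.84 ± 0.20, followed by PHACTR3-AS1 at -0.81 ± 0.20. All 13 kept their sign after quantile normalization, and CCDC18-AS1 alone did not pass there (-0.34, adjusted p = 0.21).

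**Figure D5:**
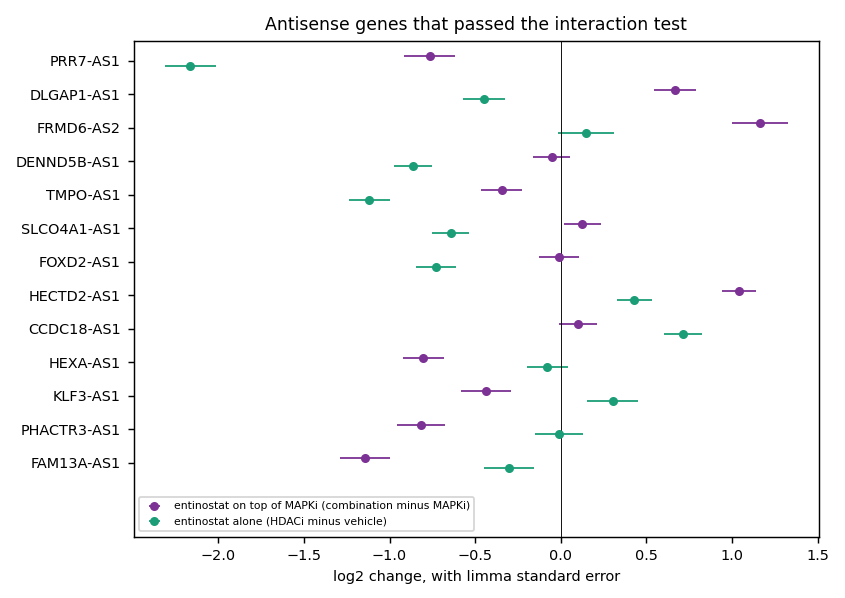
Log2 change (x axis, with limma standard errors) given by entinostat on top of MAPKi (purple) and by entinostat alone (green) for the 13 antisense RNAs that passed the interaction test. PRR7-AS1 and TMPO-AS1 fell less on top of MAPKi than alone, while FAM13A-AS1 and PHACTR3-AS1 fell more on top of MAPKi.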

How the data were processed

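RNA was measured on 12 single-colour arrays, 3 per treatment group, and whether each array had a culture of its own is not settled by the labels. The values are linear intensity values that the authors deposited after RMA in the Transcriptome Analysis Console, per the submitters' processing notes. An ERCC spike-in was added before extraction, per the labels' protocols, and its use for scaling, the scaling between arrays, the genome build of the probes and their strand are, in the sources used here, not given. Of 29592 rows, 14783 were linked to 1 gene symbol by the platform annotation and 14809 were unnamed here. The brightest row of each gene gave 14599 genes. The log2 of the deposited intensity of all 12 arrays went into 1 linear model (limma 3.58.1 under R 4.3.3, with moderated statistics from eBayes), which left 8 residual and 7.68 prior degrees of freedom. P-values were adjusted by Benjamini-Hochberg over all genes in each of 6 comparisons, at a threshold of 0.05. Precision is limited by the number of arrays.

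The members and the 9 gene lists were chosen with earlier results of these data known. The lists hold 375 memberships, of which 136 were measured. Some members are named for genes outside the heading of their list, so counts by list describe the lists only. The genes named were the 5 largest rises and falls of each comparison that passed without overlap between the groups' arrays, with their sense genes, up to 4 passing genes of each list, the brightest members, opposite pairs by size of difference and a few members fixed by name. CCDC18-AS1, EPCIP-AS1, the ENTPD1, LEMD1, UPK1A and HAS2 pairs and the 6 printed promoters were chosen after their values were seen. Positions, strands and promoters came from RefSeq, GRCh38.p14. On simulated data for MAPKi against vehicle with 14599 genes, the fit called 65.2% of changes of 0.5, 98.5% of changes of 1 and 100% of changes of 2 on the log2 scale, and 6 unchanged genes. The simulation had independent noise, 200 changed genes and no shift in overall level between groups. It therefore checks the fit and does not measure error on the real arrays. Tables and plots were made with Python 3.11.15, pandas 2.3.3 and matplotlib 3.10.9. Arrays of equal number were not treated as pairs. The correlation of deviations between same-numbered arrays lay between -0.11 and 0.12 (median 0.03), beside a median of -0.01 for arrays of other numbers. Alternatives were quantile normalization, subtraction of each array's median, a filter on dim genes, another variance model, means of the rows of a gene, the platform's symbols, fits on only the arrays compared, the array number as a block, and each array left out.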

Additional observations from a re-analysis of the deposited data

Results flagged for a closer look

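For 13 antisense RNAs the effect of entinostat differed between cells with and without MAPKi by a test of the difference itself, the interaction in limma. The difference was positive, so that the change on top of MAPKi lay above that with entinostat alone, for PRR7-AS1 (1.40), DLGAP1-AS1 (1.11), FRMD6-AS2 (1.01), DENND5B-AS1 (0.81), TMPO-AS1 (0.77), SLCO4A1-AS1 (0.77), FOXD2-AS1 (0.72) and HECTD2-AS1 (0.61). It was negative for FAM13A-AS1 (-0.84), PHACTR3-AS1 (-0.81), KLF3-AS1 (-0.74), HEXA-AS1 (-0.72) and CCDC18-AS1 (-0.62). The share of members that passed, 2.77%, was below the 8.0% of all genes, and the members are dimmer than most genes. No group of arrays here had more than 3, so single outlying arrays were not looked for.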

How the results depend on the processing

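Scaling decided the balance of rises and falls. With each array's median subtracted, 270 members were higher and 42 lower with the combination, 213 and 25 with MAPKi, 78 and 51 with HDACi, 84 and 70 for combination against MAPKi, and 206 and 10 for combination against HDACi. After quantile normalization these counts were 86 and 49, 80 and 19, 38 and 58, 60 and 91, and 68 and 8, and 14 interactions were positive. Without the dimmest 40% of genes they were 8 and 137 with the combination, 7 and 112 with MAPKi, 7 and 92 against MAPKi and 1 and 126 against HDACi, and 11 were higher with HDACi, with fewer genes tested. Apart from quantile normalization, shares of all genes under the settings of this section are not given. These counts are thus no trait of the members. On the deposited scale the median change of all genes with the combination was -0.04 in the dimmest of 10 bins of level and -1.32 in bin 9, and most members are dim.

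With 1 array left out, 15 to 20 members were higher and 244 to 313 lower with the combination, 8 to 16 and 141 to 206 with MAPKi, 18 to 27 and 74 to 129 with HDACi, 17 to 22 and 109 to 175 against MAPKi, and 2 to 4 and 175 to 263 against HDACi. Positive interactions numbered 8 to 10 and negative ones 3 to 9, with 9 without combination array 2 and 3 without HDACi array 2, MAPKi array 1, combination array 3, vehicle array 2 or vehicle array 3. The low of 8 came without MAPKi array 1, and that of 74 without vehicle array 1.

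With the array number as a replicate block, 19 members were higher and 291 lower with the combination, 14 and 197 with MAPKi and 26 and 124 with HDACi, and of the changes named none lost its call. The numbers share no stated batch, and for 7 of 12 arrays the best correlation was with an array of the same number.

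A few named values changed sign. With array medians subtracted, CDKN2A-AS1 was at 0.36, EGFR-AS1 at 0.47 and SPART at 0.20 with MAPKi, ENTPD1-AS1 at 0.12 with the combination, and C2CD4D at 0.24 for combination against MAPKi. LEMD1-AS1 also turned positive with the combination under that setting. After quantile normalization CDKN2A-AS1, EGFR-AS1, SPART and C2CD4D were at 0.070, 0.035, 0.26 and 0.11, and HECTD2 was at 0.00093, CCDC18 at 0.23, ZNF667-AS1 at 0.20 and EPB41L4A-AS1 at 0.14 with the combination. With 1 array left out, EGFR-AS1 lay between -0.15 and 0.058 and ZEB2-AS1 between -0.0065 and 0.29 with MAPKi, ARHGEF26 between -0.18 and 0.14 with the combination, and C2CD4D between -0.13 and 0.071 against MAPKi. The cause of these shifts was not tested.

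The main limits are 1 cell line, 3 arrays per group called biological or technical in different labels, and the unknown scaling between arrays. For dim members the number of arrays and the low signal limit what can be detected, and a member that did not pass is not shown to be unaffected.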
